A study of Mus musculus with 52 samples.

Results

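In the second of the study's 2 bulk RNA-seq experiments, carried as ST#15 in the sample names, tumors of the group described as Combination (D) were compared with tumors of the group described as control (A). The comparison held 5 D and 5 A libraries, 10 of the 52 libraries in the series, and its members were taken by the ST#15-D and ST#15-A names. The description label named A as control, B as ADU-S100, C as anti-LTβR Ab and D as Combination, whereas the treatment label read Combination for all 20 ST#15 libraries, so the groups rested on the description and its letters alone. ADU-S100 is a cyclic dinucleotide that activates the DNA-sensing adaptor STING, and the antibody, clone 4H8, activates the lymphotoxin-β receptor (LTβR). The study's methods describe male C57BL/6NHsd mice of 8 to 10 weeks carrying subcutaneous KPC tumors, which grow from a pancreatic cancer line of a mouse whose Cre was driven by the Pdx1 promoter. In that scheme 2 µg ADU-S100 was injected once into the tumor, 100 µg antibody was given intraperitoneally 4 times, and tumors were collected on day 14. The methods do not tie this scheme to an experiment number, and the labels gave neither schedule, sex, age nor tumor site for ST#15. In the other experiment, ST#23, with 8 libraries in each of 4 groups, the treatment label and the description gave the same group. All groups carried tumors of this 1 line. Tumors were not pooled. Each library is treated here as 1 tumor.

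LTβR signals through the non-canonical NF-κB route and in lymphoid organs drives stromal and endothelial cells to make the homing chemokines CCL19, CCL21 and CXCL13. These chemokines and the adhesion molecules of high endothelial venules bring B and T cells into tissue, where they can form tertiary lymphoid structures. STING signals through TBK1 to type I interferon, and interferon in turn induces antiviral genes and the chemokines CXCL9 and CXCL11.

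The depth was even except in 1 library. Whole reads recovered from the deposited values numbered 16484000 to 18789100 in 9 of the 10 libraries and 8716260 in D3. D3 had reads in 17066 genes, against 21066 to 22688 in the other 9, and 1 of its reads was worth 3.78 normalised reads, against 0.817 to 0.959. Genes with a longest transcript under 1000 nt held 25.0% of its normalised reads, against 10.9% to 12.9% in A and 12.4% to 18.5% in the other D libraries. Its log values had a median correlation of 0.717 with the other ST#15 libraries, against 0.875 or more for the other 9. Each leading count is therefore given with D3 and without it.

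**Figure D1:**
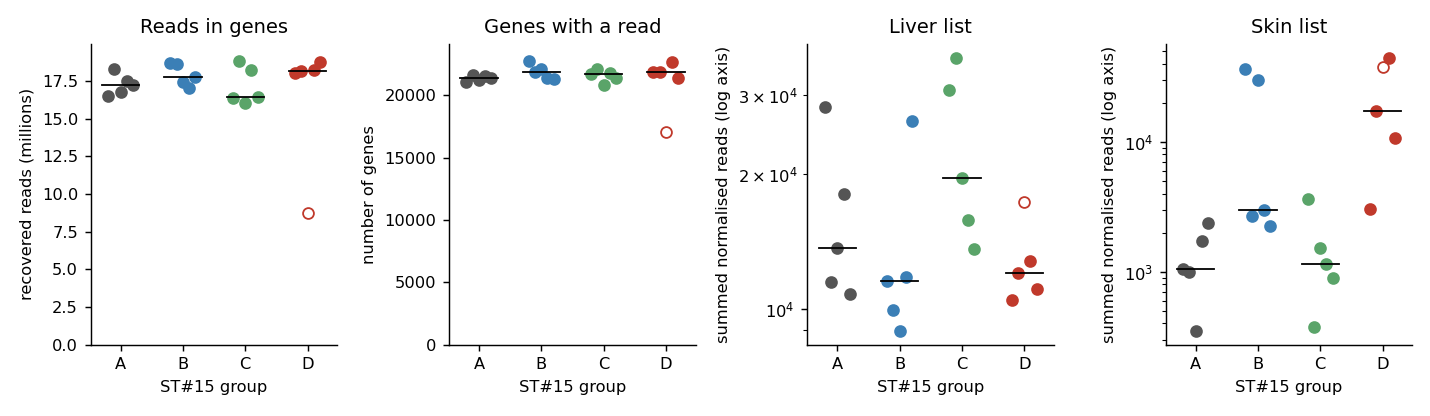
Recovered reads, genes with at least 1 read, and the summed normalised reads of the liver and skin marker lists in each of the 20 ST#15 libraries, by group (1 point per library, black bar at the median, open red point D3; the last 2 axes are logarithmic). D3 sits at 8716260 reads and 17066 genes, the liver sums of A and D overlap, and every D library lies above every A library for the skin list.

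Liver transcripts were present in every ST#15 group. Alb, which encodes serum albumin, had 6036, 2215, 1117, 2964 and 1298 in A1 to A5 and 1709, 1278, 374, 1895 and 1785 in D1 to D5 (normalised reads, the deposited unit), and its groups overlapped with A1 the highest. Over the 8 ST#23 A libraries it ran from 1.00 to 12.1, and over the 8 ST#23 D libraries from 0.988 to 22.4. Apoa2, an apolipoprotein, had 379, 137, 58.1, 212 and 67.6 in A1 to A5 and 93.9, 101.4, 174, 85.7 and 169 in D1 to D5. Ttr, the thyroxine carrier transthyretin, had 433, 162, 71.7, 259.6 and 74.6 in A1 to A5 and 129.5, 119, 7.55, 138 and 189 in D1 to D5. The log2 fold changes of D over A were -0.87 with all 10 libraries (adjusted p = 0.345) and -0.45 without D3 (adjusted p = 0.518) for Alb, -0.17 with all 10 libraries (adjusted p = 0.844) and -0.31 without D3 (adjusted p = 0.726) for Apoa2 and -0.97 with all 10 libraries (adjusted p = 0.473) and -0.16 without D3 (adjusted p = 0.861) for Ttr. None of these 3 genes passed the test, and all 3 had overlapping groups. The summed liver list ran from 10800 to 28300 in A and from 10500 to 17300 in D. With its log2 sum as a covariate, limma called 6 genes higher and 0 lower in D, with 3661 at an unadjusted p under 0.05, in place of 145 and 12. The log2 fold changes in that fit were 5.02 for Mzb1, 3.88 for Iglc1, 3.38 for Igkc and 2.75 for Slpi, against 5.24, 4.05, 3.56 and 2.86 without the covariate. Of the 30 liver genes tested, 0 passed in either direction, 27 had a fold change below 0, and the median was -0.79, or -0.47 without D3. By adjusted p alone 0.961% of all genes tested were higher in D and 0.0927% lower. A count of 0 in 30 genes is near those shares and is not a result about liver content. Fga and Tat were lower in every D library than in every A library, at log2 fold changes of -1.68 with all 10 libraries (adjusted p = 0.18) and -1.11 without D3 (adjusted p = 0.0791) and -1.49 with all 10 libraries (adjusted p = 0.202) and -0.95 without D3 (adjusted p = 0.083), and neither passed.

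With all 10 libraries, 145 of 15096 genes tested were at least 2-fold higher in D (0.961%) and 12 at least 2-fold lower (0.0795%) at an adjusted p under 0.05 in limma. At an unadjusted p under 0.05 there were 3066 genes. The balance of the 2-fold calls was 39 higher and 1 lower with equal totals and 1160 higher and 165 lower with DESeq2. By adjusted p alone the numbers were 145 higher (0.961%) and 14 lower (0.0927%). Without D3 the same test called 587 of 15404 genes higher (3.81%) and 110 lower (0.714%), and by adjusted p alone 698 higher (4.53%) and 707 lower (4.59%). The balance without D3 by adjusted p alone was 553 higher and 754 lower with equal totals, which changed the scaling alone. It was 830 higher and 462 lower under edgeR with TMM, which changed both the test and the scaling. All 145 higher genes and 10 of the 12 lower genes were among the calls without D3. The D values lay above all A values in 644 tested genes and below all A values in 1223, which is 4.27% and 8.10% of those tested. The number of calls depended on the libraries used. Leaving out 1 library at a time gave 1 to 697 calls, with 1 call without A2, 2 without D2, 5 without A1, 6 without D4, 8 without A4, 30 without D5, 88 without A5, 138 without A3, 308 without D1 and 697 without D3.

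In the gene groups below, a gene rose or fell where its adjusted p in limma was under 0.05. Over all genes tested 0.961% rose and 0.0927% fell by this rule, or 4.53% and 4.59% without D3. In short lists a count of 0 is near those shares and is not a result about the list. B-cell and antibody genes rose in D. Of 10 B-cell genes tested, 5 rose in D and 0 fell, with a median log2 fold change of 2.65 against -0.06 over all genes tested. Without D3, 7 of 10 rose with a median of 2.40 against -0.01 over all genes. In bulk tumors more B cells and more RNA per B cell cannot be told apart.

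Cd79a and Cd79b encode the signalling chains of the B-cell receptor. In normalised reads, Cd79a had 9.44, 25.1, 24.5, 14.9 and 18.4 in A1 to A5 and 167, 276, 2096, 225 and 119 in D1 to D5. Cd79b had 20.8, 36.0, 57.2, 37.6 and 50.0 in A1 to A5 and 136, 258, 408, 278 and 192 in D1 to D5. Every D library was above every A library for both genes, and D3 was the highest for both. The log2 fold change was 4.05 ± 0.68 (adjusted p = 0.0333), and 3.35 ± 0.36 (adjusted p = 0.00722) without D3 for Cd79a (± SE here and below). It was 2.61 ± 0.37 (adjusted p = 0.0221), and 2.42 ± 0.33 (adjusted p = 0.00948) without D3 for Cd79b. Ms4a1, which encodes CD20, had 8.5, 10.9, 7.26, 14 and 7.90 in A1 to A5 and 46.9, 84.7, 34.0, 133 and 135 in D1 to D5, and here D3 was the lowest of the D libraries but still above A. Its log2 fold change was 2.87 ± 0.46 (adjusted p = 0.0311), and 3.16 ± 0.38 (adjusted p = 0.00948) without D3. Ighd, the constant region of IgD on naive B cells, had 9.44, 6.70, 7.26, 1.75 and 5.27 in A1 to A5 and 33.0, 193, 79.3, 138 and 63.3 in D1 to D5, and its log2 fold change was 3.73 ± 0.55 (adjusted p = 0.0231), and 3.76 ± 0.57 (adjusted p = 0.0111) without D3. Fcrla, a B-cell Fc receptor-like protein, and Spib, a transcription factor of B and plasmacytoid dendritic cells, also had no overlap between groups. Neither passed with all libraries, at 1.72 with all 10 libraries (adjusted p = 0.089) and 1.95 without D3 (adjusted p = 0.018) for Fcrla and 3.06 with all 10 libraries (adjusted p = 0.0661) and 2.45 without D3 (adjusted p = 0.0201) for Spib, and both passed without D3.

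Immunoglobulin constant-region genes rose with them. Of 11 tested, 8 rose with all libraries and 10 without D3, with medians of 3.92 and 3.69. Their summed level was 6090 to 26800 normalised reads in A and 49300 to 427000 in D, or 49300 to 207000 without D3. Iglc1, a lambda light chain constant region, had 83.1, 296, 179.8, 122 and 244 in A1 to A5 and 2776, 1949, 6489.7, 2534 and 1894 in D1 to D5, and its log2 fold change was 4.05 ± 0.42 (adjusted p = 0.0115), and 3.75 ± 0.33 (adjusted p = 0.00374) without D3. Igkc, the kappa constant region, had 2394, 4960.0, 9628, 3715 and 9251 in A1 to A5 and 84617, 45771, 136219, 65179.9 and 26193 in D1 to D5, and its log2 fold change was 3.56 ± 0.50 (adjusted p = 0.0218), and 3.28 ± 0.46 (adjusted p = 0.00948) without D3. Iglc2 and Iglc3, at 3.92 with all 10 libraries (adjusted p = 0.0218) and 3.63 without D3 (adjusted p = 0.00948) and 4.96 with all 10 libraries (adjusted p = 0.0119) and 4.67 without D3 (adjusted p = 0.00722), are near-identical copies between which the counting could split reads. Among heavy chains, Ighg2b (IgG2b) had 221, 1157, 1552, 522 and 1802 in A1 to A5 and 29382, 13865, 15064, 16416 and 3109 in D1 to D5 and a change of 3.93 ± 0.67 (adjusted p = 0.0333), and 3.87 ± 0.72 (adjusted p = 0.0171) without D3. Igha (IgA) had a log2 fold change of 3.19 ± 0.60 (adjusted p = 0.0377), and 2.86 ± 0.56 (adjusted p = 0.019) without D3. Ighm (IgM) had 1628, 973, 2648, 1259.7 and 4975 in A1 to A5 and 29054, 10978, 126768, 14904 and 1901 in D1 to D5, and D5 lay inside the A range, so its change of 3.08 ± 0.91 (adjusted p = 0.124), and 2.34 ± 0.72 (adjusted p = 0.0632) without D3 did not pass. Of 121 immunoglobulin variable genes tested, a group defined from the symbols after the values were seen, 13 rose and 0 fell, and 60 of 135 rose without D3. The lambda variable gene Iglv1 had a log2 fold change of 3.87 ± 0.45 (adjusted p = 0.0119), and 4.02 ± 0.45 (adjusted p = 0.00722) without D3, and the kappa variable gene Igkv3-12 one of 4.23 ± 0.58 (adjusted p = 0.0218), and 4.16 ± 0.61 (adjusted p = 0.0104) without D3.

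Plasma-cell genes moved with them in part. Mzb1, a chaperone of antibody-secreting cells, had 8.5, 15.1, 53.6, 3.5 and 58.8 in A1 to A5 and 634, 532, 2489, 714 and 289.8 in D1 to D5, and its log2 fold change was 5.24 ± 0.77 (adjusted p = 0.0221), and 4.79 ± 0.72 (adjusted p = 0.0111) without D3. Derl3, an endoplasmic reticulum protein of secretory cells, had a log2 fold change of 3.12 ± 0.58 (adjusted p = 0.0372), and 2.82 ± 0.54 (adjusted p = 0.018) without D3. Jchain, which joins IgM and IgA units, had 686, 911, 2085, 830.5 and 2025 in A1 to A5 and 15449, 7097, 1359.9, 13424 and 7205 in D1 to D5. D3 was the only D library inside the A range for it, and the change was 2.54 ± 0.61 (adjusted p = 0.0756), and 3.12 ± 0.39 (adjusted p = 0.00948) without D3. Pou2af1, the B-cell transcriptional coactivator, went the same way with 2.32 ± 0.65 (adjusted p = 0.11), and 2.91 ± 0.42 (adjusted p = 0.0104) without D3. Xbp1, the transcription factor of the secretory program, had no overlap between groups and a log2 fold change of 0.58 ± 0.17 (adjusted p = 0.124), and 0.67 ± 0.10 (adjusted p = 0.0113) without D3. In all, 2 of 10 plasma-cell genes rose and 6 of 10 without D3. Tnfrsf17 (BCMA), the survival receptor of plasma cells, failed the filter on low values, with 1.89, 3.35, 7.26, 4.37 and 2.63 in A1 to A5 and 39.1, 8.31, 37.8, 31.0 and 17.3 in D1 to D5. Its groups did not overlap, and the two-sided exact permutation test gave p = 0.00794, the smallest it can give.

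**Figure D2:**
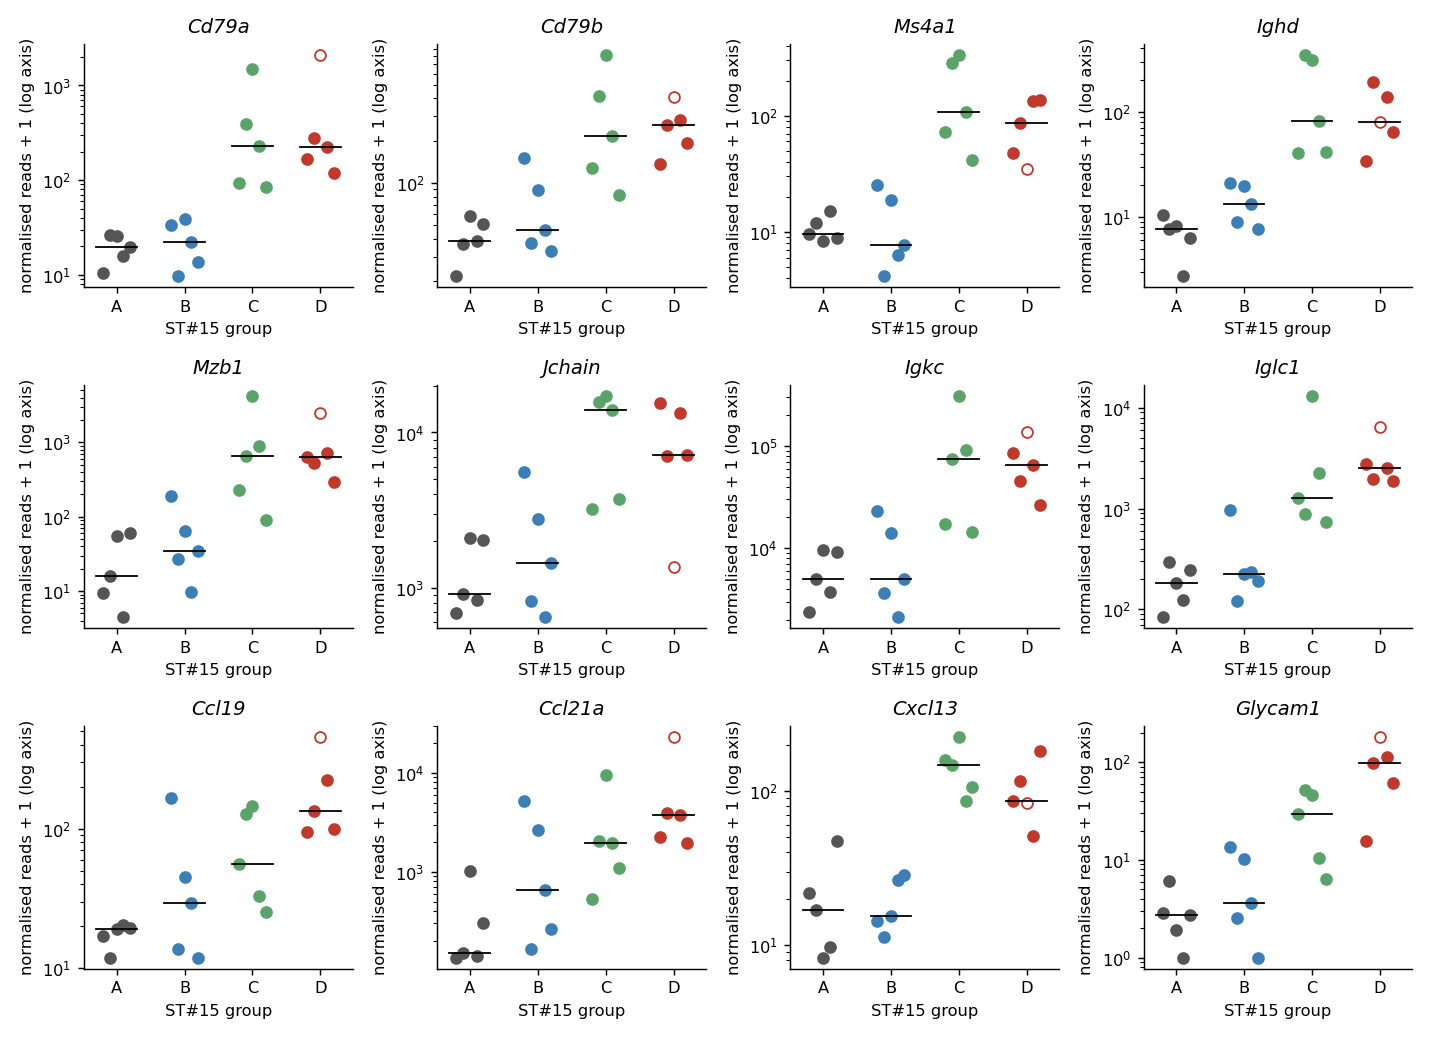
Normalised reads plus 1 of 12 B-cell, antibody, chemokine and high endothelial genes in each ST#15 library by described group (logarithmic axes, 1 point per library, black bar at the median, open red point D3). For Cd79a every D library, from 119 to 2096, lies above every A library, from 9.44 to 25.1, and group C (83.8 to 1496) overlaps with D.

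The libraries described as anti-LTβR Ab alone (C) and ADU-S100 alone (B) were not tested and stand side by side here. Cd79a was 32.7, 8.68, 38.1, 21.1 and 12.5 in B1 to B5 and 93.1, 388, 1496, 230.2 and 83.8 in C1 to C5. Mzb1 was 191, 26.1, 64.3, 8.78 and 33.4 in B and 226, 664, 4222, 884 and 88.3 in C. Group C overlapped with D for both genes and group B overlapped with A. Library C3 resembled D3 in that 28.1% of its normalised reads came from genes with transcripts under 1000 nt. Its values were the highest of group C for both genes.

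Homing chemokines were the next group. Of 13 lymphoid chemokine and ligand genes tested, 3 rose and 0 fell, or 5 without D3, with a median of 1.37 and 1.11. Ccl19, which draws CCR7-bearing T cells and dendritic cells, had 16.0, 10.9, 18.2, 19.2 and 18.4 in A1 to A5 and 93.0, 132, 457, 222 and 97.9 in D1 to D5. The groups did not overlap, and D3 was the highest. The log2 fold change was 3.27 ± 0.45 (adjusted p = 0.0218), and 2.90 ± 0.32 (adjusted p = 0.00722) without D3. Ccl21a, a second CCR7 ligand, had 134, 149.9, 1024, 141 and 302 in A1 to A5 and 2264, 3961, 23246, 3722 and 1956 in D1 to D5 and had a log2 fold change of 4.14 ± 0.73 (adjusted p = 0.0333), and 3.53 ± 0.55 (adjusted p = 0.0121) without D3. Ccl21b, a near-identical copy to which reads may be shared, had a log2 fold change of 3.88 ± 0.71 (adjusted p = 0.0349), and 3.31 ± 0.55 (adjusted p = 0.0136) without D3. Cxcl13, the B-cell attractant of follicles, had 20.8, 15.9, 7.26, 8.74 and 46.5 in A1 to A5 and 85.2, 115, 83.1, 49.8 and 180.4 in D1 to D5. Its groups did not overlap, and its log2 fold change was 2.48 ± 0.53 (adjusted p = 0.0536), and 2.53 ± 0.54 (adjusted p = 0.0229) without D3. Group C held 158, 147, 225, 85.9 and 105 for this gene, and group B 13.2, 10.3, 14.4, 25.5 and 27.6. The summed chemokine list, however, was 14295, 2675, 10286, 4946 and 3112 in B1 to B5. It was 2670 to 5690 in A and 8160 to 35900 in D, or 8160 to 12300 without D3. B1 and B3 also had the highest skin sums of group B, 36718 and 30093. Cxcl12, a stromal chemokine, was inside the A range in D3 alone, and had a log2 fold change of 2.17 ± 0.59 (adjusted p = 0.105), and 2.59 ± 0.51 (adjusted p = 0.0188) without D3.

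The promoters of Ccl19 and Cxcl13 are shown because these chemokines are known products of LTβR signalling and their groups did not overlap. Both come from RefSeq (GRCm38.p6) and run from 250 bases before to 50 after the start, 5′ to 3′ on the gene's strand. Capitals mark matches to a loose NF-κB motif read on both strands, GGGA and CC with NNNN between them, which occurs in 20.7% of all 32851 promoters of the same length. Of 13 promoters found for 12 genes of the chemokine list, 6 held it, and that of Ccl21a did not. A match is a description of the letters, and no binding was measured.
Ccl19, chr4:42756316-42756615, minus strand: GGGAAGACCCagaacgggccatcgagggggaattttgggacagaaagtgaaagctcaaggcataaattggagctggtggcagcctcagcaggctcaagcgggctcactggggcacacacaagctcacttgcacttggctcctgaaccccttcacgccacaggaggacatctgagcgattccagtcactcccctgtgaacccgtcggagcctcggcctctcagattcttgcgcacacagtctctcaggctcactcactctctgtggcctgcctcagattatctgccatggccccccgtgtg
Cxcl13, chr5:95956689-95956988, plus strand: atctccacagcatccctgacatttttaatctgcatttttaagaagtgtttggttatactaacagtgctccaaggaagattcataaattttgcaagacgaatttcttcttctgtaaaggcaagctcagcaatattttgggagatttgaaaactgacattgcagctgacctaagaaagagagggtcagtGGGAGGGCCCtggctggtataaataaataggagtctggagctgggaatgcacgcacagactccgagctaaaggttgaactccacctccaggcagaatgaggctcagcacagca

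Genes of high endothelial venules and vessels rose in part. Glycam1, the sulfated ligand for L-selectin on high endothelial venules, had 1.89, 5.03, 0.908, 0 and 1.76 in A1 to A5 and 14.8, 97.2, 181, 111 and 60.4 in D1 to D5. Its A libraries held 0 to 5.03, so the fold rests on few reads in A, and the log2 fold change on the log2(value + 1) scale was 4.87 ± 0.71 (adjusted p = 0.0221), and 4.53 ± 0.68 (adjusted p = 0.0111) without D3. Ackr1, the atypical chemokine receptor of venules, had a log2 fold change of 2.20 ± 0.43 (adjusted p = 0.0425), and 2.14 ± 0.43 (adjusted p = 0.0194) without D3. Of 12 high endothelial and adhesion genes, 2 rose and 0 fell, and 5 rose without D3. Of 18 blood endothelial genes, 3 rose and 0 fell, and 5 rose and 1 fell without D3. The gene that fell was Flt1, a receptor for VEGF, at -0.89 with all 10 libraries (adjusted p = 0.109) and -0.82 without D3 (adjusted p = 0.0478). Cldn5, a tight junction protein of endothelium, had 44.4, 76.2, 108, 63.8 and 77.3 in A1 to A5 and 263, 395, 1277, 569 and 256 in D1 to D5 and had a log2 fold change of 2.66 ± 0.44 (adjusted p = 0.0333), and 2.29 ± 0.31 (adjusted p = 0.00948) without D3. Egfl7, a secreted endothelial factor, had a log2 fold change of 2.11 ± 0.41 (adjusted p = 0.0423), and 1.73 ± 0.24 (adjusted p = 0.00948) without D3, and Sox18, an endothelial transcription factor, one of 2.14 ± 0.42 (adjusted p = 0.0427), and 1.98 ± 0.40 (adjusted p = 0.0202) without D3. Tie1 and Plvap had no overlap between groups and did not pass with all libraries, at 1.80 with all 10 libraries (adjusted p = 0.0743) and 1.49 without D3 (adjusted p = 0.0283) and 2.36 with all 10 libraries (adjusted p = 0.131) and 1.62 without D3 (adjusted p = 0.0269). The summed skin list, given with the skin genes, was higher in every D library than in A. With its log2 sum as a covariate, in a fit chosen after seeing the data, the log2 fold changes were 1.65 for Cldn5, 1.21 for Sox18, 0.98 for Egfl7, 0.69 for Tie1 and 0.16 for Plvap, and none passed.

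Some T-cell genes passed, but only without D3. Of 17 tested, 0 passed with all libraries, where 0.961% of all genes rose, and 7 rose without D3, against 4.53%. Here and for the lists that follow, a count of 0 is near the share over all genes and is not a result about the list. All 17 T-cell genes had a fold change above 0 in both fits. The median was 1.22 and 0.99. Cd3d, a chain of the CD3 complex, had 74.6, 144, 233, 108 and 121 in A1 to A5 and 235, 357, 2773, 247 and 389 in D1 to D5, a range in which D3 stood far above the other D libraries. Its log2 fold change was 1.87 ± 0.62 (adjusted p = 0.156), and 1.23 ± 0.31 (adjusted p = 0.0362) without D3. Trbc2, a constant region of the T-cell receptor, had a log2 fold change of 2.23 ± 0.66 (adjusted p = 0.123), and 1.60 ± 0.41 (adjusted p = 0.0372) without D3. Among those that overlapped, Lck, the proximal kinase of the receptor, had a log2 fold change of 1.10 ± 0.29 (adjusted p = 0.101), and 1.01 ± 0.28 (adjusted p = 0.047) without D3. Of 17 cytotoxic and natural killer genes, 0 passed in either fit, with medians of 1.05 and 0.80. Of 14 type 1 helper genes, 0 passed with all libraries and Cxcl11 (2.33, adjusted p = 0.0181) alone passed without D3. Cxcl11, an interferon-induced ligand of CXCR3, had 77.4, 91.3, 107, 41.1 and 84.3 in A1 to A5 and 438, 149.6, 121, 410.0 and 851 in D1 to D5 and did not overlap. Of 9 follicular and germinal centre genes, 0 passed with all libraries, and Cxcl13 and Fas (1.15, adjusted p = 0.0166) passed without D3. Cd40, the B-cell costimulatory receptor, had no overlap and did not pass, at 1.32 with all 10 libraries (adjusted p = 0.133) and 0.98 without D3 (adjusted p = 0.053). Of 13 regulatory and checkpoint genes, 0 passed and 1 rose without D3, with a median of 0.79.

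The genes the study names for its tumor RNA-seq made a list of 28, of which 24 were tested. With all libraries 2 rose, Mzb1 and Ccl21a, and 23 of 24 had a fold change above 0 with a median of 0.86. The list was chosen by the study on its own RNA-seq, so these counts are not independent evidence of its direction. The log2 fold change of Ifng was 1.17 with all 10 libraries (adjusted p = 0.239) and 0.91 without D3 (adjusted p = 0.246). That of Gzmb was 1.18 with all 10 libraries (adjusted p = 0.169) and 1.07 without D3 (adjusted p = 0.123), that of Cxcr5 2.30 with all 10 libraries (adjusted p = 0.113) and 2.01 without D3 (adjusted p = 0.0671) and that of Pdcd1 1.22 with all 10 libraries (adjusted p = 0.212) and 0.74 without D3 (adjusted p = 0.115). These 4 genes did not pass in either fit. Il10, an immunosuppressive cytokine, did not pass either, at 0.35 with all 10 libraries (adjusted p = 0.568) and 0.19 without D3 (adjusted p = 0.742), and in ST#23 it was -0.86 (adjusted p = 0.00149). Il21 and Cd40lg failed the filter with values of at most 13.3, and their two-sided exact permutation tests gave p = 0.317 and p = 0.19.

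The lists of the pathways that the agents act on held few calls, as did the table as a whole, where 0.961% of genes rose and 0.0927% fell by adjusted p alone, or 4.53% and 4.59% without D3. In lists of this size a count of 0 is near that share and is not a result about the pathway. Of 23 interferon-stimulated genes 0 passed in either fit, with medians of 0.27 and 0.18. Bst2, the antiviral protein tetherin, had 4235, 5058, 4272, 3454 and 3533 in A1 to A5 and 7836, 4944, 11132, 3164 and 9999.8 in D1 to D5, and its groups overlapped. Of 8 STING pathway genes 0 passed, with a median of -0.32, and STING itself, listed as Tmem173, had a log2 fold change of 0.51 with all 10 libraries (adjusted p = 0.279) and 0.33 without D3 (adjusted p = 0.268). Of 16 interferon-γ GTPase genes and 14 MHC class I genes, 0 passed in either fit. Of 7 MHC class II genes 0 passed with all libraries, and H2-Ob (1.05, adjusted p = 0.0441) passed without D3. In D3 the summed MHC class II level was 1200000 normalised reads, against 118000 to 133000 in the other D libraries and 46500 to 132000 in A. Of 11 genes on the non-canonical NF-κB list 0 passed, and 1 without D3, a gene not particular to that route. That was Nfkbia, the inhibitor IκBα and itself an NF-κB target, with 837, 742, 955, 879 and 901 in A1 to A5 and 1171, 1270.3, 1435, 1354 and 1422 in D1 to D5 and a change of 0.63 ± 0.16 (adjusted p = 0.0915), and 0.60 ± 0.12 (adjusted p = 0.0183) without D3. Relb, the subunit that LTβR activates, had 559, 536, 593, 462 and 442 in A1 to A5 and 722, 832, 2538, 577 and 667 in D1 to D5 and had a log2 fold change of 0.80 ± 0.36 (adjusted p = 0.244), and 0.43 ± 0.15 (adjusted p = 0.0865) without D3.

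Other immune cells changed in single genes. Camp and Ngp, granule proteins of maturing neutrophils, rose by 2.96 ± 0.52 (adjusted p = 0.0333), and 2.79 ± 0.49 (adjusted p = 0.0156) without D3 and by 4.21 ± 0.84 (adjusted p = 0.044), and 4.22 ± 0.90 (adjusted p = 0.0222) without D3. They were 2 of 12 neutrophil genes that passed, against 3 without D3, with a list median of 1.22 or 1.76. Ngp was at 0 in A1 and A3 and at 15.9 in A2, so its level in A varied. Cd209a, a C-type lectin of monocyte-derived dendritic cells, had 14.2, 4.19, 35.4, 14.9 and 47.4 in A1 to A5 and 66.9, 170.3, 147, 419.8 and 115 in D1 to D5 and had a log2 fold change of 3.05 ± 0.65 (adjusted p = 0.053), and 3.06 ± 0.68 (adjusted p = 0.0255) without D3. Of 10 dendritic cell genes 0 passed with all libraries, and 2 rose without D3, Cd209a and Cd83 (0.94, adjusted p = 0.0442). Of 13 macrophage genes 0 passed with all libraries, and of 14 tested without D3 only Marco (3.02, adjusted p = 0.0156) rose. C1qb, a complement subunit made by macrophages, had 6065, 6768, 11999.6, 7452 and 8785 in A1 to A5 and 10506, 11731, 121657, 8511 and 15004 in D1 to D5, so D3 stood far above the rest.

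Skin markers moved with the group as well. The 10 skin genes summed to 349 to 2390 normalised reads in A and 3030 to 44600 in D, with no overlap, and to 2230 to 36700 in B and 374 to 3620 in C. Krt14, the keratin of basal keratinocytes, had 542, 545, 208, 770.1 and 1009.7 in A1 to A5 and 1268, 7178, 20579.6, 12105 and 5162 in D1 to D5 and a log2 fold change of 3.58 ± 0.67 (adjusted p = 0.0377), and 3.16 ± 0.62 (adjusted p = 0.0186) without D3. Krtdap, a differentiation protein of keratinocytes, had a log2 fold change of 5.30 ± 0.85 (adjusted p = 0.0311), and 5.20 ± 0.92 (adjusted p = 0.0153) without D3. All 10 skin genes had a fold change above 0, 5 passed with all libraries and 10 without D3, and the list median was 3.61, or 3.93. In ST#23 the skin sums ran from 2780 to 44000 in A and from 1820 to 64300 in D. Because the ST#15 sums did not overlap, skin content and the group cannot be told apart. With the log2 skin sum as a covariate a fit chosen after seeing the data called 0 genes (323 at an unadjusted p under 0.05) in limma, and 2 without D3. With all libraries that fit gave log2 fold changes of 6.04 for Iglc3, 5.37 for Reg3g, 4.85 for Mzb1, 3.59 for Iglc1, 2.75 for Cd79a and 1.82 for Cd79b, and 0.11 for the skin gene Krt14, none of which passed. Other named genes moved by over 1.5 times in that fit, to 2.77 for Glycam1, 2.35 for Igkv3-12, 2.28 for ENSMUSG00000121463, 2.25 for Ngp and 1.92 for Ccl19. Cidea, a lipid droplet protein of fat cells, had 21.7, 2.51, 0.908, 18.4 and 28.1 in A1 to A5 and 63.5, 187, 366, 588 and 239 in D1 to D5 and was the 1 of 9 adipose genes that rose, by 4.56 ± 0.85 (adjusted p = 0.0376), and 4.39 ± 0.90 (adjusted p = 0.0202) without D3. With the skin covariate its log2 fold change was 0.90, and 0.79 without D3 as well. The adipose sums were 530 to 2580 in A and 1680 to 17400 in D. Of 12 skeletal muscle genes 0 passed, with sums of 2860 to 20600 in A and 1940 to 52600 in D. 

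Fibroblast genes rose in part. Of 15 tested, 1 rose with all libraries, Dpt, and 5 without D3, where 0.961% and 4.53% of all genes rose. All 15 had a fold change above 0 with a median of 1.12. The summed fibroblast list was 25104, 43659, 65573, 76387 and 43314 in D1 to D5, where the skin sums were 3031, 17149, 37880, 44559 and 10641. The Dpt change ran from 2.57 to 3.43 over the alternative settings, skin covariates among them. Dpt encodes dermatopontin, an extracellular matrix protein, and had 382, 328, 2485, 352 and 1021 in A1 to A5 and 3154, 5891, 3698, 11575 and 3773 in D1 to D5 with a change of 2.94 ± 0.58 (adjusted p = 0.0427), and 3.05 ± 0.61 (adjusted p = 0.0194) without D3. Dcn, the small proteoglycan decorin, had 2143, 1157, 9771, 2037 and 3679.6 in A1 to A5 and 9967, 19429.9, 3539, 32760.2 and 24019.8 in D1 to D5, and D3 was the one D library inside the A range. Of 20 collagen and matrix genes 0 passed with all libraries, and 16 had a fold change above 0. Without D3 1 rose and 1 fell, and 17 were above 0. The gene that rose was the matricellular protein Postn (1.19, adjusted p = 0.0408). The gene that fell was Fn1, fibronectin, which was below A in every D library, with 178087, 136651, 126305, 180616 and 146825 in A1 to A5 and 86853, 91817, 36879, 36765 and 46593 in D1 to D5 and a change of -1.47 ± 0.37 (adjusted p = 0.0867), and -1.32 ± 0.34 (adjusted p = 0.0375) without D3. Of 14 acute-phase and complement genes 0 passed, and 4 without D3, among them the acute-phase protein Saa3 (2.21, adjusted p = 0.0407).

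Genes of the tumor cells were mixed. The sum of the epithelial list was 12100 to 20700 normalised reads in A and 8440 to 65700 in D, or 8440 to 14600 without D3. Of 13 epithelial genes 0 passed with all libraries, and 9 had a fold change above 0. Of 14 tested without D3, 2 rose, Epcam and Cldn4, 1 fell, Lad1 (-0.77, adjusted p = 0.025), and 9 were above 0. The keratin genes did not pass, with log2 fold changes of -0.15 with all 10 libraries (adjusted p = 0.887) and -0.70 without D3 (adjusted p = 0.3) for Krt18 and 0.09 with all 10 libraries (adjusted p = 0.952) and -0.67 without D3 (adjusted p = 0.355) for Krt7. Epcam, the epithelial adhesion molecule, had 34.0, 27.6, 66.3, 69.1 and 56.2 in A1 to A5 and 88.7, 195, 11.3, 844 and 169.8 in D1 to D5, so D3 was the lowest and D4 the highest, and its log2 fold change was 1.37 ± 0.89 (adjusted p = 0.363), and 2.21 ± 0.57 (adjusted p = 0.0383) without D3. Cldn4, an epithelial tight junction protein, had 8.5, 10.9, 9.08, 12.2 and 13.2 in A1 to A5 and 27.8, 57.3, 83.1, 784 and 58.5 in D1 to D5 and had a log2 fold change of 2.98 ± 0.75 (adjusted p = 0.084), and 3.02 ± 0.79 (adjusted p = 0.0404) without D3. Both were highest in D4, the library with the highest skin sum. With the log2 skin sum as a covariate and without D3, the log2 fold change in limma was 0.42 for Epcam and 0.21 for Cldn4, and neither passed. Cdkn2a, the cell cycle inhibitor locus, had 3.78, 7.54, 9.08, 2.62 and 4.39 in A1 to A5 and 47.8, 33.2, 283, 56.3 and 39.3 in D1 to D5 and rose by 3.41 ± 0.61 (adjusted p = 0.0333), and 2.88 ± 0.40 (adjusted p = 0.00948) without D3. Its A values were under 10 normalised reads in each library. Of 18 cell cycle genes 0 passed in either fit, and of 13 hypoxia and glycolysis genes 0 passed. Over all genes tested 0.961% rose and 0.0927% fell, or 4.53% and 4.59% without D3. These counts of 0 are near those shares and are not a result about the lists. Rrm2, a ribonucleotide reductase subunit, was lower in every D library and had a log2 fold change of -0.71 ± 0.23 (adjusted p = 0.146), and -0.60 ± 0.18 (adjusted p = 0.0595) without D3.

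The genes that led the calls by adjusted p included several outside these groups. Slpi, a secreted inhibitor of leukocyte elastase, had 579, 956, 1299, 1089 and 1595 in A1 to A5 and 9272, 7002, 12669.6, 7910.1 and 3902 in D1 to D5 and had a log2 fold change of 2.86 ± 0.35 (adjusted p = 0.0119), and 2.68 ± 0.31 (adjusted p = 0.00898) without D3. Reg3g, an antimicrobial lectin of epithelia, had 12.3, 13.4, 25.4, 5.25 and 43.0 in A1 to A5 and 367, 1011, 1813, 177 and 1449 in D1 to D5 and had a log2 fold change of 5.38 ± 0.70 (adjusted p = 0.0197), and 5.04 ± 0.68 (adjusted p = 0.00948) without D3. Col6a4, a collagen VI chain, had 0.944, 0, 2.72, 2.62 and 1.76 in A1 to A5 and 19.1, 64.8, 52.9, 100.4 and 29.7 in D1 to D5, which is few reads in A, and had a log2 fold change of 4.31 ± 0.59 (adjusted p = 0.0218), and 4.26 ± 0.60 (adjusted p = 0.00948) without D3. The unnamed gene ENSMUSG00000121463 had 18.9, 10.1, 11.8, 19.2 and 15.8 in A1 to A5 and 115, 169, 521, 217 and 126 in D1 to D5 and had a log2 fold change of 3.64 ± 0.44 (adjusted p = 0.0119), and 3.28 ± 0.31 (adjusted p = 0.00374) without D3.

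Among the 12 lower genes, Thsd4, a matrix protein of microfibrils, had 1209, 981, 616, 1128 and 755 in A1 to A5 and 376, 209, 295, 150.3 and 165 in D1 to D5 and had a log2 fold change of -2.01 ± 0.31 (adjusted p = 0.0254), and -2.11 ± 0.29 (adjusted p = 0.00948) without D3. Srgap3, a protein of axon guidance pathways, had 1578, 1117, 1035, 1303 and 1235 in A1 to A5 and 622, 668, 393, 366 and 349 in D1 to D5 and had a log2 fold change of -1.43 ± 0.24 (adjusted p = 0.0333), and -1.37 ± 0.22 (adjusted p = 0.013) without D3. Map1b, a microtubule-associated protein, had 2721, 2726, 2648, 2998 and 2950.0 in A1 to A5 and 1441, 1439, 918, 1195 and 628 in D1 to D5, and Nf1, which encodes neurofibromin, had 1154, 1155, 1079, 1276 and 1284 in A1 to A5 and 681, 681, 457, 643 and 371 in D1 to D5. Map1b had a log2 fold change of -1.38 ± 0.24 (adjusted p = 0.0333), and -1.33 ± 0.22 (adjusted p = 0.0142) without D3. Nf1 had a log2 fold change of -1.11 ± 0.22 (adjusted p = 0.0427), and -1.04 ± 0.18 (adjusted p = 0.0153) without D3. Prune2, Peak1, Cdc42bpa, Pcdhga1, Slit2 and Fam129a were also lower in every D library, with log2 fold changes from -1.67 to -1.03. Lengths of the longest annotated transcript (GENCODE M21) had a median of 9024 nt over the 12 lower genes, 1547 nt over the 145 higher genes and 3177 nt over all tested. Without D3 the medians were 5739.5 nt over 110 lower genes and 1991.5 nt over the 587 higher ones, against 3159.5 nt over all. The share of reads in genes with transcripts under 1000 nt was 11.2%, 12.9%, 11%, 11.2% and 10.9% in A1 to A5 and 14.9%, 12.7%, 25.0%, 12.4% and 18.5% in D1 to D5. The share of reads in mitochondrial genes was 3.13%, 2.91%, 2.41%, 2.46% and 2.05% in A1 to A5 and 3.85%, 2.83%, 3.75%, 3.66% and 3.77% in D1 to D5, so that D2 alone of the D libraries lay within the A range. The part of transcript length and of the mitochondrial share in these calls was not tested.

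**Figure D3:**
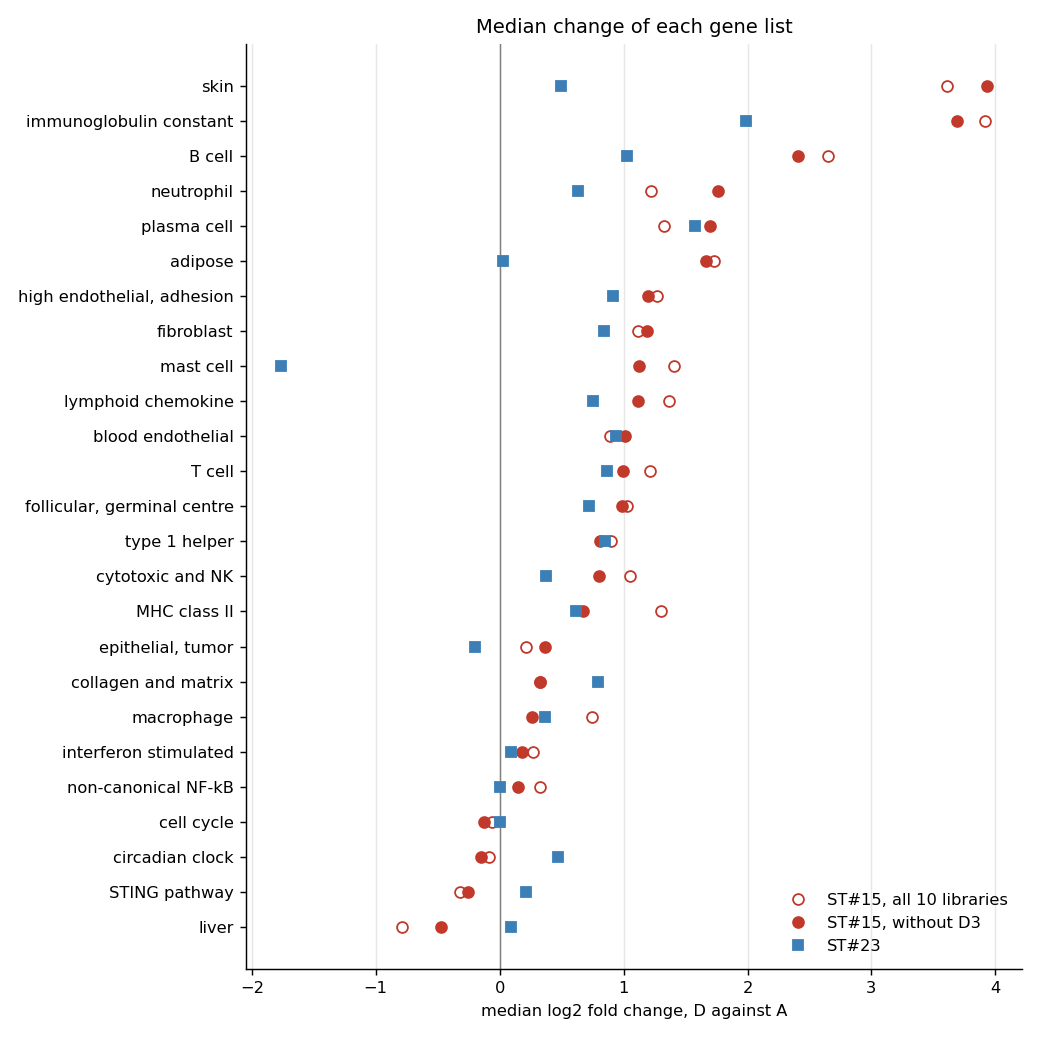
Median log2 fold change of D over A for 25 gene lists, in ST#15 with all 10 libraries (open red circles), in ST#15 without D3 (filled red circles) and in ST#23 (blue squares). Skin, immunoglobulin and B-cell lists lie farthest right in ST#15, at medians of 2.40 to 3.93 without D3, and the mast cell list lies on opposite sides of 0 in the 2 experiments.

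The other experiment, ST#23, was read from the same table and shares no library with ST#15. There 3283 of 15737 genes were higher in D (20.9%) and 3319 lower (21.1%) at an adjusted p under 0.05, from 8 libraries a group. Of the 698 genes higher in ST#15 without D3, 386 were also higher in ST#23, which is 55.3% of the ST#15 calls and 11.8% of the ST#23 calls. Of the 707 lower, 384 were also lower, 54.3% of the ST#15 calls and 11.6% of the ST#23 calls. Calls in opposite directions numbered 8. Across the 14749 genes tested in both, which are not independent replicates, the log2 fold changes had a Pearson correlation of 0.58 without D3 and 0.481 over 14558 genes with it.

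**Figure D4:**
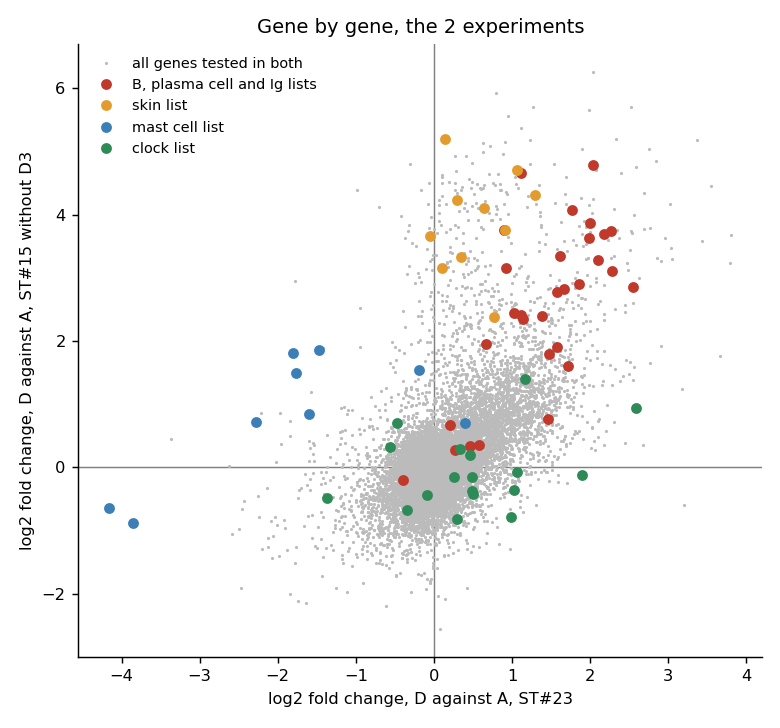
Log2 fold change of D over A in ST#15 without D3 against that in ST#23 for each gene tested in both (grey), with the B-cell, plasma-cell and immunoglobulin lists in red, the skin list in orange, the mast cell list in blue and the clock list in green. The Pearson correlation across genes was 0.58, the skin list had a median of 3.93 in ST#15 and 0.49 in ST#23, and mast cell genes lie mostly above 0 in ST#15 and below 0 in ST#23.

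The difference itself was tested as the interaction of group with experiment over 26 libraries. With all of them 74 of 17101 genes had a positive interaction, a D over A change that was higher in ST#15 (0.433%), and 117 a negative one (0.684%). Under edgeR with TMM scaling the balance turned, to 854 positive and 297 negative, and with equal totals it was 19 and 19. Without D3 the numbers were 346 (2.00%) and 718 (4.14%) of 17336, and all 191 first calls were among them. The counts ran from 60 to 2994 when 1 ST#15 library at a time was left out.

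Most lymphoid genes tested did not pass the interaction test, and a few had a larger change in ST#15. With all libraries a positive interaction was called in 1 of 12 B-cell, 0 of 11 plasma-cell, 2 of 12 immunoglobulin constant, 0 of 159 immunoglobulin variable, 2 of 13 lymphoid chemokine and 0 of 17 T-cell genes, where the share over all genes was 0.433%. Without D3 these were 2, 1, 2, 6, 2 and 0, against 2.00% of all genes. Cxcl13 differed by 3.44 ± 0.69 (adjusted p = 0.0226), and 3.48 ± 0.72 (adjusted p = 0.0115) without D3, and did not pass with equal totals (adjusted p = 0.0516) or with the skin sum as a covariate (adjusted p = 0.0541), in a range of 0.00367 to 0.0541 over its settings. In ST#23 its log2 fold change was -0.95 (adjusted p = 0.0779), with a range of 12.9 to 57.5 in A and 4.48 to 36.6 in D. Ccl19 differed by 2.68 ± 0.54 (adjusted p = 0.0226), and 2.31 ± 0.49 (adjusted p = 0.0118) without D3, where ST#23 D held 17.5 to 35.5. Ighd differed by 2.83 ± 0.58 (adjusted p = 0.0226), and 2.86 ± 0.60 (adjusted p = 0.0115) without D3, and Iglc3 by 3.85 ± 0.80 (adjusted p = 0.0233), and 3.56 ± 0.82 (adjusted p = 0.0178) without D3. Ms4a1 passed without D3 only, at 1.95 ± 0.61 (adjusted p = 0.08), and 2.24 ± 0.60 (adjusted p = 0.0323) without D3. Cd79a and Igkc did not pass this test, at 2.44 ± 0.76 (adjusted p = 0.0792), and 1.74 ± 0.59 (adjusted p = 0.0725) without D3 and 1.47 ± 0.73 (adjusted p = 0.2), and 1.18 ± 0.74 (adjusted p = 0.317) without D3. Reg3g and ENSMUSG00000121463 differed by 3.48 ± 0.84 (adjusted p = 0.0427), and 3.14 ± 0.85 (adjusted p = 0.0332) without D3 and by 3.09 ± 0.45 (adjusted p = 0.0027), and 2.73 ± 0.37 (adjusted p = 0.000551) without D3.

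Mast cell genes differed between the experiments. Mcpt4, a chymase of connective tissue mast cells, had 89.7, 106, 99.9, 87.4 and 282 in A1 to A5 and 123, 632, 619.5, 1354 and 291 in D1 to D5 in ST#15, where D2, D3 and D4 were high and D1 and D5 were inside or near the A range. Its log2 fold change was 1.93 ± 0.59 (adjusted p = 0.131), and 1.81 ± 0.61 (adjusted p = 0.0847) without D3. In ST#23 its log2 fold change was -1.81 (adjusted p = 0.000374). The difference was 3.74 ± 0.64 (adjusted p = 0.013), and 3.62 ± 0.67 (adjusted p = 0.0074) without D3. Cpa3, the mast cell carboxypeptidase, had 43.4, 64.5, 88.1, 63.8 and 156 in A1 to A5 and 77.4, 309, 178, 929 and 265 in D1 to D5 and differed by 3.21 ± 0.61 (adjusted p = 0.0194), and 3.34 ± 0.63 (adjusted p = 0.00757) without D3, and Cma1, another chymase, by 3.35 ± 0.71 (adjusted p = 0.0233), and 3.26 ± 0.75 (adjusted p = 0.0178) without D3. Of 10 mast cell genes in the interaction fit, 6 had a positive interaction and 0 a negative one, or 7 without D3, Tpsb2, Mcpt1 and Mcpt2 among them. The share of all genes with a positive interaction was 0.433%, or 2.00% without D3. In ST#15 itself 0 of 9 mast cell genes passed. The skin list moved with the mast list. The summed mast list was 778, 3208, 5666, 4671 and 1504 normalised reads in D1 to D5, where the skin sums were 3031, 17149, 37880.3, 44559 and 10641. With the skin sum as a covariate, the ST#15 log2 fold changes in limma were -0.60 for Mcpt4, -0.14 for Cpa3 and -0.85 for Cma1 (adjusted p = 1 for each). In that fit the interactions did not pass, at 2.46 for Mcpt4 (adjusted p = 0.121, with 0.00151 to 0.121 over its settings) and 2.27 for Cpa3 (adjusted p = 0.133, with 0.00274 to 0.133). With equal totals Cpa3 also did not pass (adjusted p = 0.0525).

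Several clock genes had a lower change in ST#15 than in ST#23. Dbp and Tef encode transcription factors of the PAR bZIP family that are clock outputs, and Per3 is a repressor in the clock loop. Tef had 984, 844, 761, 907 and 911 in A1 to A5 and 774, 828, 514, 868 and 888 in D1 to D5, so A and D overlapped, and in ST#23 it was 734 to 1083 in A and 1652 to 2459.8 in D. Its difference was -1.27 ± 0.18 (adjusted p = 0.0027), and -1.13 ± 0.15 (adjusted p = 0.000412) without D3. Per3 had 233, 245, 159.8, 211 and 217 in A1 to A5 and 153, 122, 15.1, 145 and 81.6 in D1 to D5, lower in every D library and lowest in D3, and the difference was -2.36 ± 0.48 (adjusted p = 0.0226), and -1.77 ± 0.23 (adjusted p = 0.000412) without D3. It did not pass with equal totals (adjusted p = 0.0608) or with the skin sum as a covariate (adjusted p = 0.131), in a range of 0.000412 to 0.131 over its settings. Dbp had 292, 343, 186, 285 and 296 in A1 to A5 and 245, 266, 1723, 216 and 289.8 in D1 to D5, where D3 stood far above every other library. Its difference, -1.46 ± 0.47 (adjusted p = 0.0862), and -2.01 ± 0.25 (adjusted p = 0.000412) without D3, did not pass with all libraries and passed without D3. Nr1d2, a repressor of Arntl, had 1554, 1499, 1589.8, 1852 and 1887 in A1 to A5 and 922, 669, 34.0, 1186 and 1111 in D1 to D5 and had a difference of -2.05 ± 0.70 (adjusted p = 0.0988), and -1.10 ± 0.17 (adjusted p = 0.00141) without D3. For Arntl, the activator of the loop, the difference was 0.45 ± 0.35 (adjusted p = 0.404), and 0.88 ± 0.15 (adjusted p = 0.00394) without D3, and both passed without D3 and not with all libraries. Of 18 clock genes 1 had a positive and 3 a negative interaction with all libraries, where the shares over all genes were 0.433% and 0.684%. Without D3 these were 2 and 6, against 2.00% and 4.14%. In ST#15 alone 0 passed with all libraries and 2 fell without D3, Clock and Nr1d2, where 4.59% of all genes fell. In ST#23 alone 11 of the 18 rose and 3 fell, with Per3 at 0.99 (adjusted p = 2.94e-05 in limma) and Nr1d2 at 0.29 (adjusted p = 0.00715). The labels used here gave no hour of collection for either experiment.

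**Figure D5:**
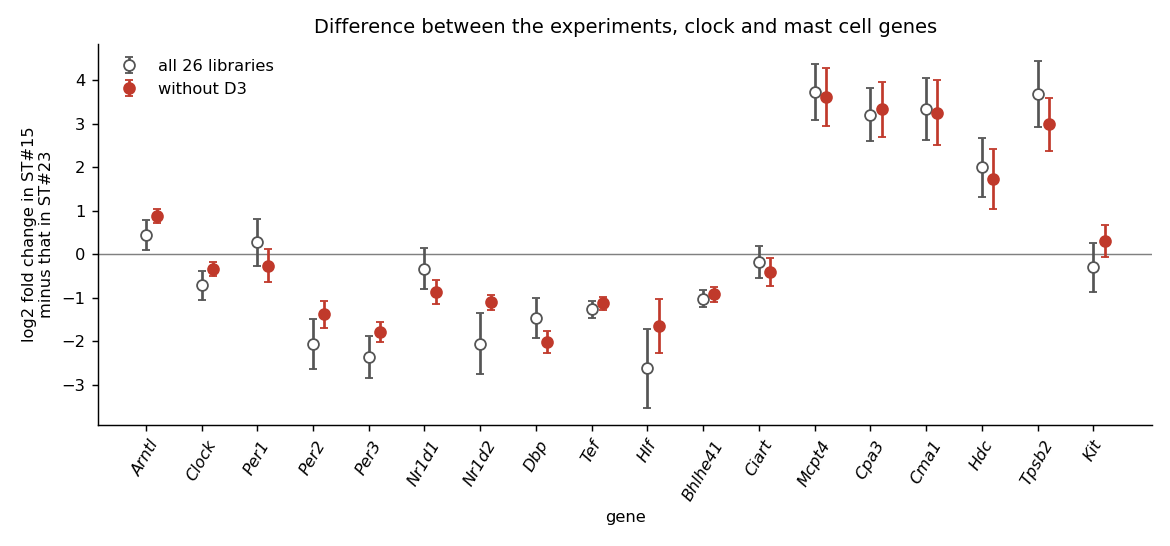
Log2 fold change of D over A in ST#15 minus that in ST#23 for clock genes (left) and mast cell genes (right), with all 26 libraries (open) and without D3 (filled); bars are the standard error. Per3, Dbp and Tef lie below 0 and Mcpt4, Cpa3 and Cma1 lie above 3.

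The promoters of Per3 and Tef are shown because, with all 26 libraries, Tef had the lowest interaction p of the clock genes and Per3 the largest negative interaction that passed, from RefSeq (GRCm38.p6) with the same window. In Per3 the capitals mark matches to the D-box TTATGNAA, held by 3.38% of all promoters, and in Tef matches to the E-box CACGTG, held by 7.15%. Both motifs were read on both strands. Of 20 promoters of 15 matched clock genes, 2 held the D-box and 6 the E-box. Tef has a second start in the table, which also holds an E-box.
Per3, chr4:151044616-151044915, minus strand: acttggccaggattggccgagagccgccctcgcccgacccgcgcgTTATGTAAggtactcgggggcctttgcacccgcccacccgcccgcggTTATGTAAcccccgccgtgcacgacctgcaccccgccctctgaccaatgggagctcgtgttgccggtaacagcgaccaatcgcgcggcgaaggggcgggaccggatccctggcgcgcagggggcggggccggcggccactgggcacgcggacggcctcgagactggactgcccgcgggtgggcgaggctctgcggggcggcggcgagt
Tef, chr15:81802423-81802722, plus strand: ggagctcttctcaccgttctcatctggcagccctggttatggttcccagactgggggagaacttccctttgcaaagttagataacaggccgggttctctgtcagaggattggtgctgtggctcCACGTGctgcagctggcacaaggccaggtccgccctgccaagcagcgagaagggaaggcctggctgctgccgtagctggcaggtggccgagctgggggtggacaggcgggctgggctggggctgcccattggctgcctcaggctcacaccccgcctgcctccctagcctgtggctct

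The other genes with the lowest interaction p were of several kinds. Vamp1, a vesicle SNARE of neurons, had 208, 181, 192, 256 and 196 in A1 to A5 and 143, 99.7, 109.5, 145 and 140.1 in D1 to D5 and differed by -1.06 ± 0.17 (adjusted p = 0.00595), and -1.01 ± 0.15 (adjusted p = 0.00118) without D3, and D430020J02Rik by -1.31 ± 0.22 (adjusted p = 0.0109), and -1.40 ± 0.20 (adjusted p = 0.000733) without D3. Srgap3 and Cdc42bpa differed by -1.19 ± 0.20 (adjusted p = 0.0109), and -1.14 ± 0.20 (adjusted p = 0.00443) without D3 and -0.94 ± 0.17 (adjusted p = 0.014), and -0.91 ± 0.16 (adjusted p = 0.00512) without D3. Gm8623, S100a11-ps and Gm11410 are predicted genes or pseudogenes that may share reads with other copies. Their medians were 21.2, 32.5 and 29.2 in ST#23 A, all 8 ST#23 D libraries were at 0, and no ST#15 library held more than 6.72 of any of them.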

How the data were processed

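Poly(A) RNA of mouse tumors was sequenced as 52 libraries, of which the 5 ST#15 A and 5 ST#15 D libraries were compared. The submitters' processing notes name cutadapt 1.9, FastQC, HISAT2, StringTie, STAR, Partek, DESeq2, edgeR and the build mm39, without their roles. The deposited values are a signal, reads per gene that the authors divided by a size factor per library. Dividing each value by the worth of 1 read gave whole reads for 100% of values within 0.01. Gene names matched 26777 of 27894 identifiers. No per-sample column was left unused (0).

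Genes passed a filter with a minimum of 10 (edgeR 4.0.16, filterByExpr), were tested on log2(value + 1) with limma 3.58.1 in R 4.3.3 and were adjusted by Benjamini-Hochberg over all genes tested. A fold change on this scale understates the change of low genes. A gene was called at an adjusted p under 0.05 and at least 2-fold. The interaction fit added the ST#23 A and D libraries. Named genes that failed the filter had a two-sided exact permutation test, whose smallest p is 0.00794. Depth was 8716260 to 18789100 reads. Named genes were the 10 higher and 10 lower called genes of lowest adjusted p whose groups did not overlap, the 5 positive and 5 negative of lowest interaction p, the study's named genes, the liver genes and a few of each list. The members, lists and rules were chosen with earlier results of these data known. In simulated data of 15096 genes with 200 changed, limma recovered 0% of 2-fold, 52.5% of 4-fold and 81.5% of 8-fold changes. Alternatives were edgeR with TMM or RLE scaling, DESeq2 1.42.0, other filters, a pseudocount of 0.1, equal totals, all groups in one fit, a replicate block, covariates for liver and skin transcripts, and leaving out each library. Skin covariates, the 3-gene liver covariate and the pairs of a setting with the removal of D3 were chosen after seeing the data. Some items are not reported here.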

Additional observations from a re-analysis of the deposited data

Results flagged for a closer look

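A library stood apart from the other 4 of its group in 27 of the 244 groups of 5 tested by Dixon's ratio, and chance sets apart about 1 in 20 groups. Of these, 21 were library D3. D3 was the highest of the D libraries, in normalised reads, at 23246 for Ccl21a, 2183 for Ccl21b, 2773 for Cd3d, 283 for Cdkn2a, 1723 for Dbp, 2538 for Relb, 714 for H2-Ob and 121657 for C1qb. It was the lowest at 238 for Clock, 15.1 for Per3, 34.0 for Nr1d2, 117 for Arntl, 514 for Tef, 374 for Alb, 7.55 for Ttr, 18.9 for Fga, 3.78 for Tat, 86.9 for Chuk and 1077 for Fam129a. D3 also had the fewest reads, 8716260, and the fewest genes with a read, 17066. Other libraries stood apart at 399 for Ighg1 in A1, 151 for Krtdap in D1, 1280 for Clock in A2, 282 for Mcpt4 in A5 and 86.3 for D430020J02Rik in A3 normalised reads. The share of normalised reads in genes with transcripts under 1000 nt was 12.9% in A2, the highest of group A.

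The D over A change differed between the experiments, by the interaction test in limma, for 28 named genes. The log2 fold change in ST#15 minus that in ST#23 was above 0, at 3.85 for Iglc3, 2.83 for Ighd, 2.68 for Ccl19, 3.44 for Cxcl13, 5.55 for Cidea, 3.57 for Ngp, 3.74 for Mcpt4, 3.21 for Cpa3, 3.35 for Cma1, 3.09 for ENSMUSG00000121463, 3.48 for Reg3g, 2.42 for Col6a4, 4.90 for Gm8623, 4.69 for S100a11-ps, 4.89 for Gm11410 and 4.87 for Reg1. It was below 0, at -0.87 for Rrm2, -2.36 for Per3, -1.27 for Tef, -1.02 for Bhlhe41, -1.19 for Srgap3, -0.99 for Map1b, -0.77 for Prune2, -0.94 for Cdc42bpa, -1.09 for Pcdhga1, -1.01 for Nf1, -1.06 for Vamp1 and -1.31 for D430020J02Rik. D3 is in this fit. Gm8623, S100a11-ps and Gm11410 were at 0 in every ST#23 D library and at most 6.72 in any ST#15 library, so their values rest on the ST#23 A libraries and say nothing of D against A in ST#15.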

How the results depend on the processing

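The 4 counts below are genes called at 2-fold, genes by adjusted p alone, named genes that passed, and interaction genes, which were 157, 159, 47 and 191. With edgeR the first 3 were 158, 159 and 42 under TMM scaling and 153, 154 and 42 under RLE scaling, and with no filter 165, 165 and 44. DESeq2 gave 1325, 1770 and 96. At least 10 in every library gave 54, 54 and 25, the pseudocount of 0.1 gave 60, 60 and 29, equal totals gave 40, 40 and 22, and all 4 groups in one fit gave 40, 40 and 17. The liver covariate gave 6, 6 and 6, the Alb, Apoa2 and Ttr covariate 23, 23 and 18, and the skin covariate 0, 0 and 0. Without D3, TMM gave 763, 1292 and 80, DESeq2 1253, 2756 and 100, equal totals 620, 1307 and 75, the skin covariate 2, 2 and 1, and the liver covariate 6, 6 and 6. Leaving out 1 library gave 1 to 697, 1 to 1405 and 1 to 80. The interaction count was 1151 under TMM, 97 with no filter, 38 with equal totals, 1400 with all 8 groups, 656 with the liver covariate, 11 with the skin covariate, and 60 to 2994 leaving out 1 library. Of the 119 named genes tested, 11 changed sign in at least 1 setting, most often with a skin covariate, and none of the 47 that passed was among them. The split of interaction genes turned from 74 positive and 117 negative to 854 and 297 under TMM. The cause of these shifts was not tested. Equal replicate numbers did not pair the libraries, since the correlations of their deviations were 0.13, -0.188, -0.0539, 0.0968 and 0.131, and a replicate block gave 41 (41 higher and 0 lower at 2-fold), 41, 18 and 37. No library passed 10 times the median liver sum, so the alternative without such libraries was not run. The depth of D3 limits its low genes, since 1 of its reads was worth 3.78 normalised reads.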
